A study of Homo sapiens with 12 samples.

Results

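The somatostatin receptors are a family of 5 G protein-coupled receptors, SSTR1, SSTR2, SSTR3, SSTR4 and SSTR5. They were chosen by gene symbol, and 5 of the 28008 genes in the count tables belong to the family. Their transcripts were followed by RNA-seq in the lines QGP-1 and BON-1, both of genotype tet-MUC1shRNA, which are human pancreatic neuroendocrine tumor (pNET) lines that carry a doxycycline (DOX)-inducible hairpin against MUC1. Cells of each line were exposed to vehicle (0.1% DMSO) or to 500 ng/mL DOX for 7 days, and 3 libraries were sequenced in each of the 4 groups. All 12 libraries therefore came from cells that carry the hairpin vector. Libraries from cells with DOX and a control hairpin were not analysed here, so an effect of the hairpin and an effect of DOX cannot be told apart. DMSO is stated for the vehicle cells only, and any effect of it cannot be separated from those of hairpin and DOX. QGP-1 cells were grown in RPMI 1640 and BON-1 cells in DMEM/F-12, so that line and medium cannot be told apart either.

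Somatostatin (SST) and the related peptide cortistatin (CORT) bind all of these receptors. The receptors couple to inhibitory G proteins, which lower adenylyl cyclase activity, open inwardly rectifying potassium channels and reduce calcium entry, and thereby restrain hormone secretion. Neuroendocrine tumors are imaged and treated with somatostatin analogs, most of which bind SSTR2 with the highest affinity and SSTR5 less tightly. After ligand binding, G protein-coupled receptor kinases phosphorylate the receptors and arrestins take them out of the membrane.

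The first checks concerned the libraries. QGP-1 libraries had between 38224144 and 50525926 counts, and BON-1 libraries had between 15981954 and 28484324. MUC1, the target of the hairpin, fell from 6.37 ± 0.867 to 0.850 ± 0.188 CPM with DOX in QGP-1, and in BON-1 from 18.4 ± 2.99 to 2.65 ± 1.25 CPM (SD, n = 3 in each group). CPM is the count scaled to library size after TMM normalization of all libraries together. All 6 neuroendocrine markers examined were detected in QGP-1 cells, whereas in BON-1 cells NCAM1, a neural adhesion molecule, stood at 0 to 2 counts per library. With vehicle, the summed level of the 6 neuroendocrine markers was 703 to 725 CPM per QGP-1 library and 7527 to 10517 CPM per BON-1 library, of which CHGA (chromogranin A), a secretory granule protein, made up 7875 ± 1415 CPM (SD, n = 3) in BON-1 cells. The T cell marker CD3E stood at 0 to 1 count in every library.

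SSTR1, SSTR2 and SSTR5 had enough reads to pass a filter on low counts. The sequences below show the DNA around an annotated RefSeq transcription start of each of them and of their ligand. They are the RefSeq windows (GRCh38.p14) from 250 bases before to 50 bases after the start, written 5′ to 3′ on the strand of the gene. Capitals mark matches to the motifs searched on both strands: TGACG and the longer TGACGTCA, to which CREB family factors bind, the E-box CACGTG, the GC box GGGCGG, and TATAAA. The longer CREB motif holds the shorter motif on both strands. Of 35116 such windows in the genome, 24.6% hold TGACG, 1.85% TGACGTCA, 7.26% CACGTG, 45% GGGCGG and 11.5% TATAAA.
SSTR1 (chr14:38207654-38207953, + strand): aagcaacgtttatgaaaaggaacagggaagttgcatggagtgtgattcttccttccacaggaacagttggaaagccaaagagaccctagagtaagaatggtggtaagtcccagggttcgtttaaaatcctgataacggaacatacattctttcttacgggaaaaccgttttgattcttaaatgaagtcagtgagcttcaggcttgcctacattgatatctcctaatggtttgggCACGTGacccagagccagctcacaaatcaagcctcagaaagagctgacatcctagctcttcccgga
SSTR2 (chr17:73164760-73165059, + strand): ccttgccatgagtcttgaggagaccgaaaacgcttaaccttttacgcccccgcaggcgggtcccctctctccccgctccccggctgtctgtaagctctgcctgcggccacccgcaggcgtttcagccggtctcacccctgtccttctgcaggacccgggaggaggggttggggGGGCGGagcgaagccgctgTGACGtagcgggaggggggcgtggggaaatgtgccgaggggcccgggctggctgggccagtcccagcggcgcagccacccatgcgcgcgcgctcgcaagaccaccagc
SSTR5 (chr16:1078576-1078875, + strand): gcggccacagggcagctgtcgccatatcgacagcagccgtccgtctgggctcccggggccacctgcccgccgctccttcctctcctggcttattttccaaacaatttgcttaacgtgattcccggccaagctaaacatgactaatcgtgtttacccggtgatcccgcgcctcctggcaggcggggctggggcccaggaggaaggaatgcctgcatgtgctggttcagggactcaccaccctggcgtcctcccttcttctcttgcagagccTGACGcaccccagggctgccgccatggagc
SST (chr3:187670345-187670644, − strand): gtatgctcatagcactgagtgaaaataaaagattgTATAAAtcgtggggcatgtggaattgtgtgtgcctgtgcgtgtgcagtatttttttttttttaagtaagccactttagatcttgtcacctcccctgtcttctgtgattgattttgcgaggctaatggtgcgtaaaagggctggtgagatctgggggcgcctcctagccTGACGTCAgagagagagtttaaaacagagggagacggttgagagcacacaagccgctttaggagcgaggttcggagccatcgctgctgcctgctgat

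The SSTR1, SSTR2 and SST windows each hold the first base of the annotated gene. The SSTR5 window instead lies inside the annotated span of its gene, so its values belong to an internal start. The receptor windows differ in base composition. The SSTR1 window has a GC content of 44.7% and 7 CpG dinucleotides, whereas the SSTR2 window has 70% and 27 and the SSTR5 window 63% and 18, against a median GC content of 58.7% over all windows. TGACG is found 58 bases before the start in SSTR2 and 20 bases after it in SSTR5, the palindrome TGACGTCA begins 47 bases before the start of SST, and the SSTR1 window holds none of these but a CACGTG 16 bases before the start. These are matches of letters and no binding was measured. The windows of SSTR4 and SSTR3, which were near or below detection, are not shown. SSTR4 has a GC content of 76%, and SSTR3 has windows at 2 starts with 67% and 54.3%.

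In the GRCh38 annotation SSTR1 lies at chr14:38207904-38213067 (+ strand), SSTR2 at chr17:73165010-73176633 (+), SSTR3 at chr22:37204237-37212477 (−), SSTR4 at chr20:23035312-23039237 (+) and SSTR5 at chr16:1072747-1081454 (+). The SSTR5 span is overlapped over 5985 bases by SSTR5-AS1, an antisense non-coding gene at chr16:1064087-1078731, but their annotated exons share 0 bases. The SSTR5 window shown above also holds the start of this antisense gene. Non-coding genes on the same strand share 279 exonic bases with SSTR2 and 413 with SSTR4. They have no row of their own in the count tables, and how reads of the shared bases were counted is not given in the sources used here.

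Among the receptors SSTR1, SSTR2 and SSTR5 had enough reads to pass the filter on low counts, and SSTR3 and SSTR4 did not pass it in any comparison. Since the family was chosen for its values in these very comparisons, the receptor levels and differences that follow are a description with no p. The number of receptors called in the fit across all genes is given once for each comparison beside the share of all genes called, and nothing is read from it. Standard errors (SE) are those of the fit across all genes.

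SSTR2, the main target of the clinical analogs, had a higher level with DOX in QGP-1 cells and a lower level in BON-1 cells. In QGP-1 cells the 3 vehicle libraries held 57, 42 and 82 counts, or 1.53, 0.996 and 1.69 CPM. The 3 DOX libraries held 395, 241 and 214 counts, or 8.39, 6.27 and 5.10 CPM. Every DOX library lay above every vehicle library, with a 4.67-fold difference (log2 fold change 2.22, SE 0.25). In BON-1 cells the vehicle libraries lay close together at 5.23, 4.96 and 5.50 CPM from 150, 115 and 103 counts, and the DOX libraries at 1.61, 3.72 and 3.98 CPM from 26, 73 and 79 counts. Each DOX library was below the vehicle libraries, with a log2 fold change of −0.75 (SE 0.26), but DOX replicate 1 stood well below the other two. Without that library, which was also the shallowest of the series and had the lowest MUC1 level in BON-1 cells (1.42 CPM), the log2 fold change was −0.47. Whether the depth or the MUC1 level of that library bears on its SSTR2 value was not tested. The difference between the responses, BON-1 minus QGP-1, was −2.96 on the log2 scale (SE 0.39). With DOX the order of the lines turned for SSTR2. The vehicle level was higher in BON-1 cells in every library, and the DOX level was higher in QGP-1 cells in every library.

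SSTR1 was the most abundant receptor transcript in BON-1 cells and scarce in QGP-1 cells, and it was lower with DOX in both. The BON-1 vehicle libraries stood at 133, 111 and 113 CPM from 3811, 2579 and 2121 counts, and the DOX libraries at 80.7, 90.7 and 91.1 CPM from 1303, 1781 and 1808 counts. The groups did not overlap and the log2 fold change was −0.45 (SE 0.08). In QGP-1 cells SSTR1 stood at 2.15, 1.99 and 1.94 CPM with vehicle and at 1.53, 0.988 and 1.19 CPM with DOX, from 80, 84 and 94 against 72, 38 and 50 counts. Here too the groups did not overlap, with a log2 fold change of −0.71 (SE 0.28). The responses of the lines differed by 0.25 on the log2 scale (SE 0.19). The SSTR1 value in QGP-1 cells depended on the unit. On the log2 scale of the deposited TPM plus 1, its difference was 0.000318. In those TPM values RN7SK, RN7SL1 and RN7SL2, which are abundant small non-coding RNAs, took up 78.8% to 80.3% of each QGP-1 vehicle library and 71.2% to 75.4% of each DOX library. With these 3 genes left out and the rest rescaled, the difference was −0.41.

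SSTR5, the other receptor that several analogs bind, followed the pattern of SSTR2 at lower levels. In QGP-1 cells it rested on few reads, with 21, 28 and 19 counts in the vehicle libraries and 35, 51 and 34 in the DOX libraries. These correspond to 0.565, 0.664 and 0.392 CPM with vehicle and to 0.743, 1.33 and 0.810 CPM with DOX. All DOX libraries lay above the vehicle libraries, but the log2 fold change of 0.83 had an SE of 0.43, and it was 0.53 without DOX replicate 2. In BON-1 cells SSTR5 stood at 4.63, 4.10 and 3.36 CPM with vehicle and at 2.66, 2.60 and 2.32 CPM with DOX, from 133, 95 and 63 against 43, 51 and 46 counts. These groups did not overlap either, with a log2 fold change of −0.69 (SE 0.26). The responses differed by −1.51 on the log2 scale (SE 0.47).

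SSTR3 and SSTR4 were at the edge of detection. In BON-1 cells SSTR3 had 11, 10 and 4 counts with vehicle and 1, 2 and 1 with DOX, so that the DOX libraries were each under 3 counts. In QGP-1 cells it had 1 count in the 6 libraries together, in a DOX library. SSTR4 had 0 counts in all 6 BON-1 libraries and in 5 of 6 QGP-1 libraries, with 2 counts in the remaining DOX library. A count of 0 allows up to 3 counts, which is 0.0619 to 0.0807 CPM in the QGP-1 libraries and 0.105 to 0.186 CPM in the BON-1 libraries. Expression below that level was not detectable at this depth.

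**Figure D1:**
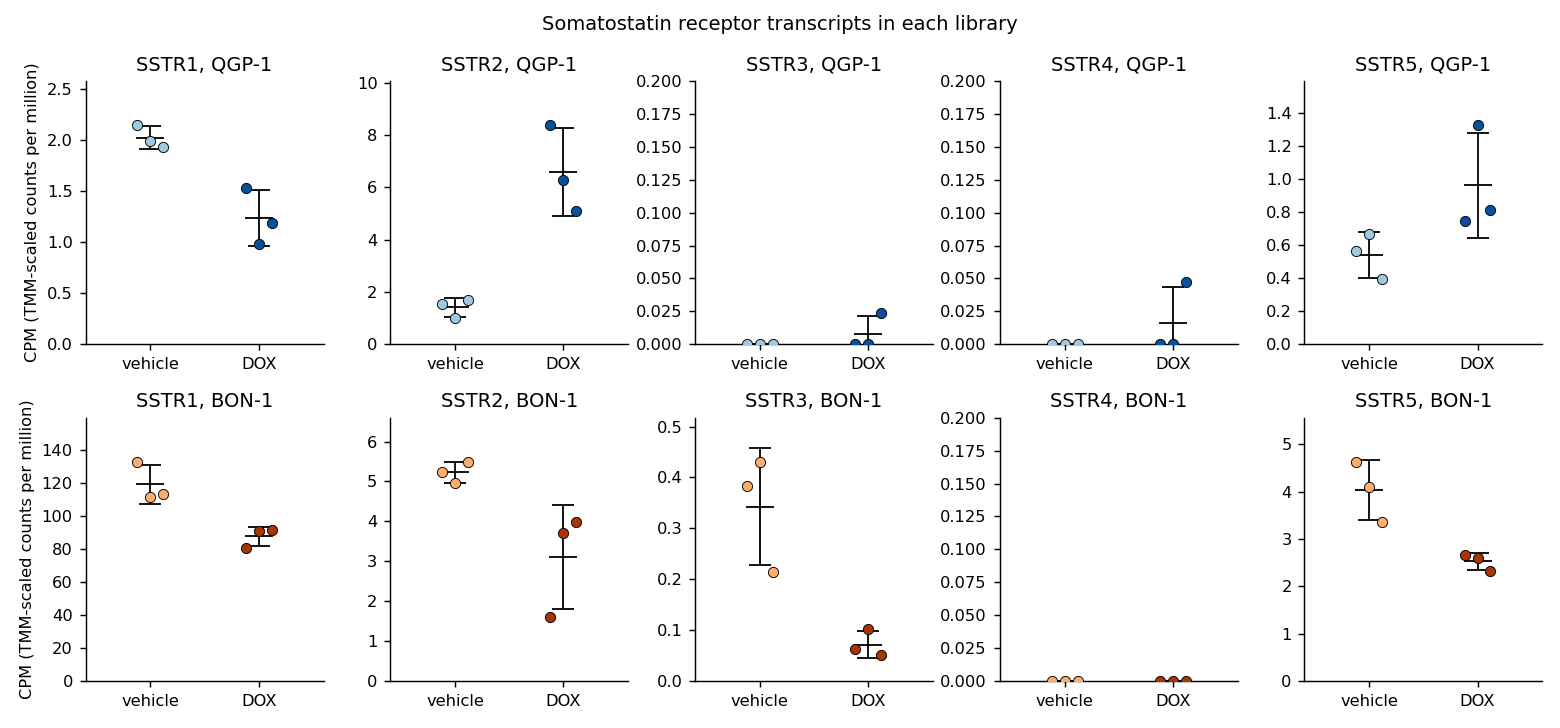
CPM (vertical axis, TMM-scaled counts relative to library size, own scale in each panel) of the 5 receptors in QGP-1 (upper row) and BON-1 (lower row) cells with vehicle or DOX; points are libraries, horizontal lines the mean and bars the SD (n = 3). SSTR2 lies higher with DOX in QGP-1 (5.10 to 8.39 CPM against 0.996 to 1.69) and lower in BON-1 (1.61 to 3.98 against 4.96 to 5.50), and SSTR1 is lower with DOX in both lines.

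Of the 3 receptors in the fit, 1 (SSTR2) had an adjusted p below 0.05 in QGP-1 cells with DOX and was called, where 35% of all genes tested were (17.3% higher, 17.7% lower). In BON-1 cells 3 were called, all lower, where 35.3% of all genes were (17% higher, 18.3% lower). In the interaction of line and DOX, 2 of 3 were called (SSTR2 and SSTR5), against 16.7% of all genes (8.8% with a higher and 7.92% with a lower response in BON-1 cells). Groups of libraries did not overlap with DOX for 46.8% of the genes tested in QGP-1 and for 45.9% of those tested in BON-1. These counts state what the choice of the family already used.

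**Figure D2:**
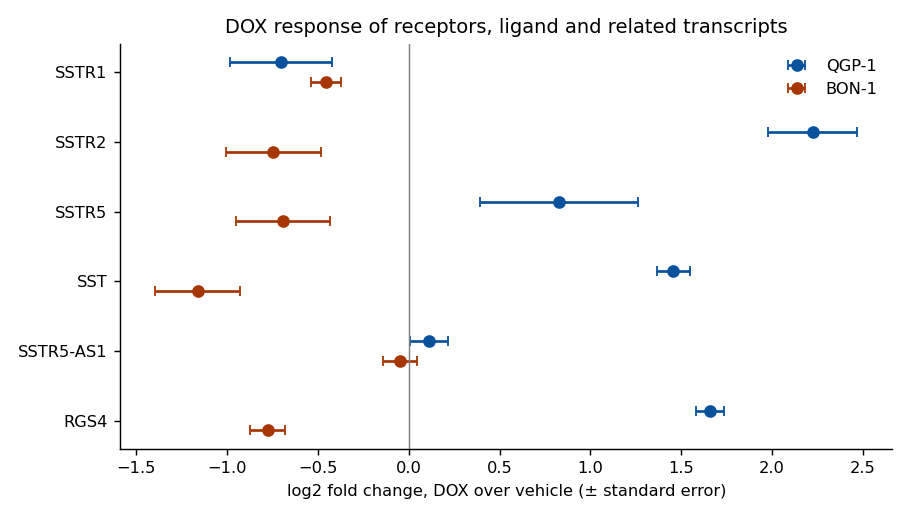
Log2 fold change of DOX over vehicle (horizontal axis) for SSTR1, SSTR2, SSTR5, their ligand SST, the antisense transcript SSTR5-AS1 and the regulator RGS4 in QGP-1 (blue) and BON-1 (red) cells; points are fitted values and bars the standard error. SSTR2, SSTR5, SST and RGS4 lie to the right of 0 in QGP-1 and to the left in BON-1, whereas SSTR1 lies to the left in both (−0.71 and −0.45).

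The levels of the receptors in the lines were then compared with vehicle alone. SSTR1 was 60.3-fold higher in BON-1 than in QGP-1 cells (119 ± 11.9 against 2.03 ± 0.111 CPM, SD, n = 3). SSTR5 was 7.69-fold higher (4.03 ± 0.638 against 0.540 ± 0.138 CPM) and SSTR2 3.79-fold higher (5.23 ± 0.270 against 1.41 ± 0.364 CPM). The log2 differences were 5.92 (SE 0.11), 2.94 (SE 0.32) and 1.92 (SE 0.25). All 3 were called at an adjusted p below 0.05, as were 77.5% of all genes tested between the lines, with 39.4% higher and 38% lower in BON-1 cells. The libraries of the lines did not overlap for 79.1% of the genes. The lines were tabulated separately and differ in depth and medium, and these cannot be told apart from the line.

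To rank the receptors against each other, levels per length were needed, which are here the deposited TPM rescaled after RN7SK, RN7SL1 and RN7SL2 were left out. In BON-1 cells with vehicle the order was SSTR1 at 64.1 ± 4.81, SSTR2 at 4.22 ± 0.187, SSTR5 at 3.58 ± 0.530 and SSTR3 at 0.185 ± 0.0635 (SD, n = 3), with SSTR4 at 0. No neighbors in this order overlapped, although SSTR2 and SSTR5 did on the TPM as deposited. In QGP-1 cells SSTR2 at 0.883 ± 0.217 and SSTR1 at 0.854 ± 0.0774 overlapped, so that their order was not set beyond the spread of the libraries. SSTR5 followed at 0.377 ± 0.105, below both in every library, and SSTR3 and SSTR4 were at 0.

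The makeup of the receptor transcripts followed from these levels. In QGP-1 cells with vehicle, SSTR1 and SSTR2 each made up about the same share of the summed per-length level (40.5% ± 2.84 and 41.6% ± 8.51), and SSTR5 made up 18.0% ± 5.67 (SD, n = 3). With DOX the share of SSTR2 was 76.8% ± 4.59, between 73.5% and 82.0%, which lay above the 32.6% to 49.5% of the vehicle libraries. The SSTR1 share was 9.78% ± 1.81 and the SSTR5 share 12.8% ± 4.71. In BON-1 cells SSTR1 dominated in all libraries, with 88.9% ± 0.482 with vehicle and 90.9% ± 1.14 with DOX. SSTR2 made up 5.88% ± 0.604 there with vehicle and 4.73% ± 1.72 with DOX, and SSTR5 4.95% ± 0.529 and 4.35% ± 0.620, and for both the groups overlapped. The lines thus differed in which receptor led after DOX, which was SSTR2 in QGP-1 and SSTR1 in BON-1 cells.

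**Figure D3:**
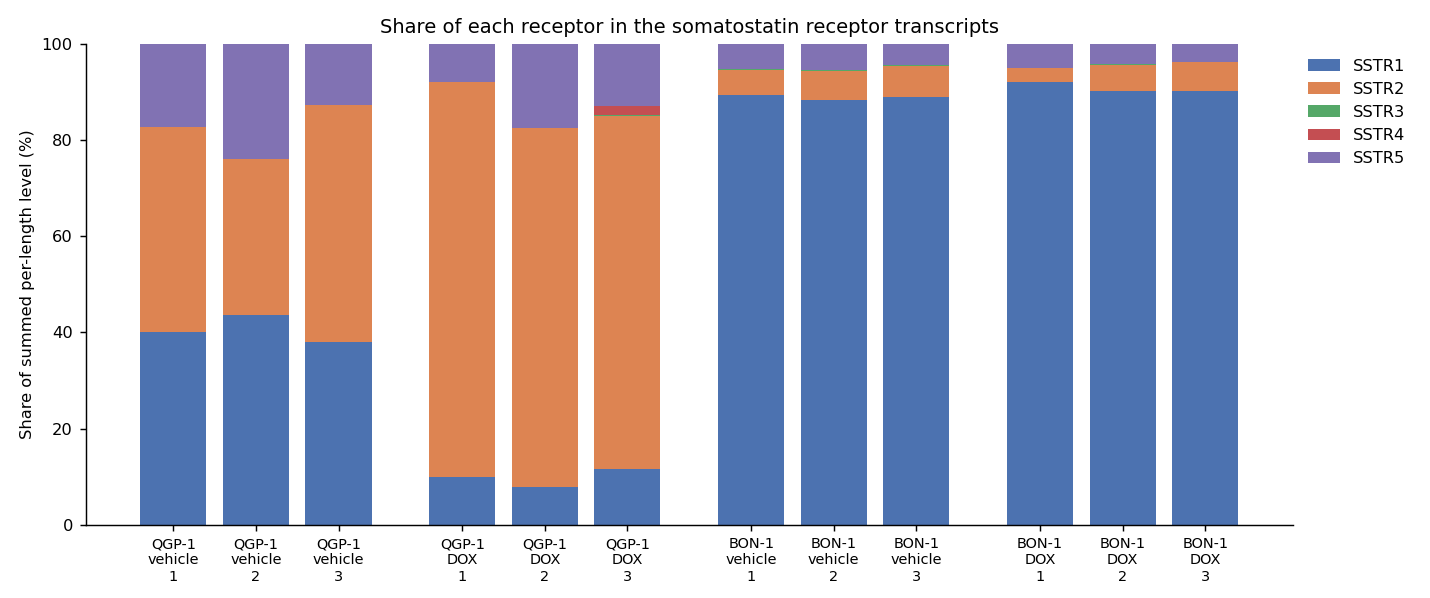
Share (%) of each receptor in the summed per-length level of SSTR1 to SSTR5, drawn as 1 stacked bar for each of the 12 libraries. SSTR2 takes 32.6% to 49.5% of the QGP-1 vehicle bars and 73.5% to 82.0% of the QGP-1 DOX bars, whereas SSTR1 takes 88.4% to 92.2% of every BON-1 bar; the SSTR4 share of 1.9% in the third QGP-1 DOX bar rests on 2 counts.

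The rule for the family did not use the ligand gene, so it was tested, although it too was listed with earlier results of these data known. SST was detected in every library and moved in opposite directions in the lines, as SSTR2 did. In QGP-1 cells it stood at 107, 118 and 87.2 CPM with vehicle and rose to 280, 287 and 287 CPM with DOX (log2 fold change 1.46, SE 0.09, edgeR quasi-likelihood test with Benjamini-Hochberg adjustment, adjusted p = 1.5e-07). In BON-1 cells it fell from 9.76, 5.48 and 6.67 to 3.10, 2.75 and 4.03 CPM (log2 fold change −1.16, SE 0.23, adjusted p = 0.00027). The difference of the responses was −2.62 (SE 0.23, adjusted p = 1.5e-08). With vehicle SST was lower in BON-1 cells (log2 difference −3.77, adjusted p = 3.5e-15), opposite to the receptors in direction. CORT had 0 to 8 counts per library and was not tested in either line. The antisense transcript SSTR5-AS1 was more abundant than SSTR5 in counts, with 1529 to 1746 in QGP-1 libraries, and did not pass the test with DOX in QGP-1 (log2 fold change 0.11, SE 0.10, adjusted p = 0.44) or BON-1 cells (−0.05, SE 0.09, adjusted p = 0.73).

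In all, 99 genes that act with or beside the receptors were examined, the ligand genes SST and CORT among them. They stood in lists of ligands, transducers, effectors, regulators and related receptors, with the receptors themselves left out. In QGP-1 cells 68 were tested, of which 13 were lower and 12 higher with DOX, and their median log2 fold change was −0.03 beside −0.01 over all genes. In BON-1 cells 70 were tested, of which 27 were lower and 8 higher, with a median of −0.21 beside −0.01 over all genes. The share called was 36.8% in QGP-1 and 50% in BON-1 cells, against the 35% and 35.3% of all genes. The QGP-1 count of lower genes was 8 without vehicle replicate 2. In the interaction 23 of 80 genes passed (28.8%), 14 with a lower and 9 with a higher response in BON-1 cells. Over all genes tested 16.7% passed, 7.92% with a lower and 8.8% with a higher response in BON-1 cells. Among 60 of these genes with a test in each line, 5 fell in both (ADCY2, ADCY7, PRKACB, RGS10 and RGS16) and 2 rose in both (GRK5 and PRKAR2A). Over all 13535 genes with a test in each line, 978 fell in both and 931 rose in both. SST and RGS4 rose in QGP-1 and fell in BON-1 cells, as 1.19% of all those genes did, and SHANK2 did the opposite. Calls in opposite directions, either way round, made up 2.69% of all those genes. Several of these calls were lost when 1 library was left out. In BON-1 cells the weakest such values were −0.38 for ADCY2 (without vehicle replicate 3), −0.42 for ADCY7 and 0.13 for GRK5 (without DOX replicate 2), −0.26 for RGS10 (without DOX replicate 3) and −0.53 for RGS16 (without vehicle replicate 2). In QGP-1 cells SHANK2 was lost in 4 of 6 such fits, at −0.28 in the weakest (without DOX replicate 3), and ADCY2 and ADCY7 without vehicle replicate 2.

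The inhibitory G protein alpha subunits, which carry the receptor signal, did not pass the test with DOX in QGP-1 cells (0 of 5 by edgeR and by DESeq2, and 1 of 5 at an unadjusted p below 0.05 by either). In BON-1 cells 3 of 5 fell and 1 rose (2 and 1 by DESeq2). GNAZ fell from 15.4 ± 1.42 to 9.47 ± 1.10 CPM (SD, n = 3, adjusted p = 0.00044), and GNAI1, per length the most abundant of them in both lines, rose from 279 ± 19.7 to 373 ± 27.6 CPM (adjusted p = 0.00012). The responses of both differed between the lines. Of the beta and gamma subunits, 2 fell and 2 rose among 11 tested in QGP-1 cells, and 1 fell and 2 rose in BON-1 cells. These calls were 36.4% and 27.3% of those tested, beside 35% and 35.3% of all genes. The QGP-1 call of GNB4, a subunit that fell, held in 1 of 6 fits without a library (weakest −0.43, without vehicle replicate 1). GNG2 was the most changed in BON-1 cells (11.2 ± 1.37 to 21.2 ± 3.86 CPM, adjusted p = 1.3e-05).

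Of all genes tested, 17.7% were called lower and 17.3% higher in QGP-1 cells, and 18.3% lower and 17% higher in BON-1 cells. Adenylyl cyclases, which these receptors inhibit, had calls in 1 direction. In QGP-1 cells 3 of 6 tested fell and 0 rose (also 0 by DESeq2 and at an unadjusted p below 0.05 by either tool), and the calls of ADCY5, ADCY2 and ADCY7 were all lost without vehicle replicate 2 (log2 fold change −0.82, −0.71 and −0.39 there). In BON-1 cells 5 of 8 fell and 0 rose (4 and 0 by DESeq2, 6 and 0 at an unadjusted p below 0.05 by either tool). The BON-1 call held in 1 of 6 fits that each left out a library for ADCY3 (weakest −0.24, without vehicle replicate 1), in 3 of 6 for ADCY2 and in 4 of 6 for ADCY7. ADCY8, which had 0 to 3 counts in QGP-1 libraries, was the cyclase with the smallest adjusted p in BON-1 cells and fell from 46.6 ± 1.48 to 29.6 ± 3.93 CPM (adjusted p = 8.1e-06). Among protein kinase A and CREB genes, 55.6% of those tested were called in QGP-1 and 50% in BON-1 cells, beside 35% and 35.3% of all genes. In QGP-1 cells 1 fell and 4 rose of 9. In BON-1 cells 2 fell and 2 rose of 8, among them the catalytic subunit PRKACA (log2 fold change −0.64, adjusted p = 8.8e-06) and CREM, a cAMP-responsive transcription factor (0.84, adjusted p = 4.4e-06).

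Channels and phosphatases lie downstream of the receptors. KCNJ3, a potassium channel opened by G protein beta and gamma subunits, stood at 0.392 ± 0.197 CPM in QGP-1 and 95.1 ± 4.76 CPM in BON-1 cells with vehicle (adjusted p = 1.1e-19), and fell to 75.1 ± 4.73 CPM with DOX in BON-1 cells (adjusted p = 0.0011). Of the calcium channel subunits, CACNA1A rose in QGP-1 (log2 fold change 0.53, adjusted p = 0.0053) and CACNA1C fell in BON-1 cells (−0.40, adjusted p = 0.00077). The tyrosine phosphatase PTPN11, which binds activated somatostatin receptors, rose in QGP-1 cells (0.37, adjusted p = 0.00091) and did not pass in BON-1 cells (−0.13, adjusted p = 0.22). In the interaction PTPN11 passed as well. PTPRJ, another phosphatase of the list, fell in QGP-1 cells (−0.40, adjusted p = 0.00053) and did not pass in BON-1 cells (−0.06, adjusted p = 0.58). PTPN6 did not pass in QGP-1 cells (−0.22, adjusted p = 0.11) and fell in BON-1 cells (−0.38, adjusted p = 0.044). The BON-1 call of PTPN6 held in 2 of 6 fits without a library.

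Among the regulators that limit receptor signaling, RGS4 moved in the directions of SSTR2 and SST. It speeds the switching off of inhibitory G proteins, and stood at 382, 320 and 374 CPM in QGP-1 vehicle libraries and at 1088, 1162 and 1143 CPM with DOX. In BON-1 cells it fell from 50.6, 45.2 and 46.8 to 26.8, 29.3 and 27.7 CPM. The log2 fold changes were 1.66 (adjusted p = 1.2e-08) and −0.78 (adjusted p = 3.1e-07), and the responses differed by −2.42 (adjusted p = 1.4e-12). Of 10 RGS genes tested in QGP-1 cells 4 fell and 1, RGS4, rose, and of 9 tested in BON-1 cells 4 fell, RGS4 among them. These calls were 50% and 44.4% of those tested, beside 35% and 35.3% of all genes. Of the receptor kinases and arrestins, 2 of 7 rose in QGP-1 cells (GRK5 and GRK4), and 3 of 7 fell and 1 rose in BON-1 cells. These calls were 28.6% and 57.1% of those tested, beside 35% and 35.3% of all genes. The QGP-1 call of GRK4 held in 2 of 6 fits without a library (weakest 0.69, without vehicle replicate 1). GRK3, a kinase of activated receptors, fell in BON-1 cells from 27.6 ± 2.00 to 13.3 ± 1.504 CPM (adjusted p = 9.6e-08) and had a log2 fold change of −0.04 in QGP-1 cells (adjusted p = 0.83). Among the PDZ scaffolds that anchor receptor tails, SHANK1 fell in BON-1 cells (−1.46, adjusted p = 0.00057), where SHANK2 rose (0.79, adjusted p = 0.00021).

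**Figure D4:**
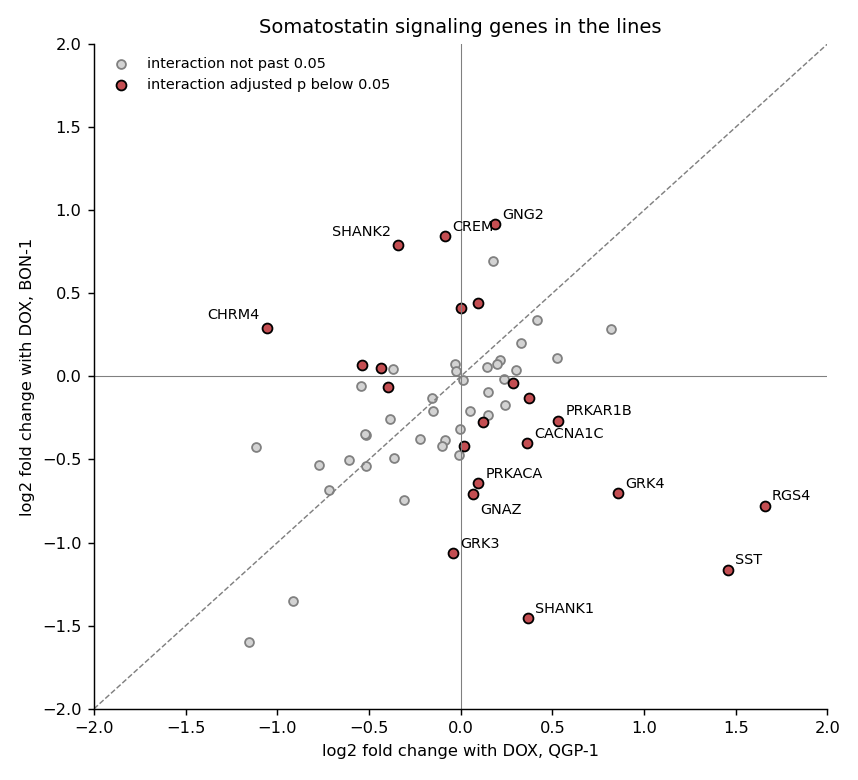
Log2 fold change with DOX in QGP-1 (horizontal axis) and BON-1 (vertical axis) cells for the 60 pathway genes tested in both lines, with red points for genes whose responses differed (interaction adjusted p below 0.05) and names for those that differ most; the dashed line marks equal responses. SST (1.46, −1.16) and RGS4 (1.66, −0.78) lie farthest to the lower right.

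The receptors nearest in sequence to the somatostatin receptors are the opioid, galanin and related peptide receptors. Most did not pass the filter on low counts, with 2 of 13 tested in QGP-1 and 3 of 13 in BON-1 cells. Among other inhibitory receptors of endocrine cells in BON-1 cells, HTR1D, a serotonin receptor, fell from 14.7 ± 1.37 to 5.79 ± 0.808 CPM (adjusted p = 2.4e-07) and ADRA2C, an adrenergic receptor, from 4.44 ± 1.87 to 1.47 ± 0.303 CPM (adjusted p = 0.0002), whereas the dopamine receptor DRD2 rose from 14.1 ± 1.26 to 23.1 ± 4.88 CPM (adjusted p = 0.00036). In QGP-1 cells the muscarinic receptor CHRM4 fell from 2.61 ± 0.474 to 1.26 ± 0.163 CPM (adjusted p = 0.0066).

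Markers of the neuroendocrine state were set beside the receptors. In BON-1 cells 2 of 5 tested fell, CHGA and SYP (synaptophysin), and CHGB (0.14, adjusted p = 0.26), INSM1 (−0.05, adjusted p = 0.67) and ENO2 (−0.14, adjusted p = 0.28) did not pass. CHGA fell from 7875 ± 1415 to 2870 ± 193 CPM there (log2 fold change −1.47, adjusted p = 2.4e-11), and the summed level of the 6 markers was 3839 to 4433 CPM with DOX, below all vehicle libraries and mostly CHGA. In QGP-1 cells the sum was 785 to 871 CPM with DOX, above the vehicle libraries. There CHGB rose (0.39, adjusted p = 0.00073), NCAM1 fell (−0.51, adjusted p = 0.00038), and CHGA was among the 4 of 6 that did not pass (0.15, adjusted p = 0.16). Calls made up 33.3% of the neuroendocrine markers tested in QGP-1 and 40% in BON-1 cells, beside 35% and 35.3% of all genes. Of the exocrine markers 3 fell and 2 rose of 6 tested in BON-1 cells, with a summed level of 411 to 481 CPM with vehicle and 495 to 605 with DOX, while AMY2A was at 0. In QGP-1 cells their sum was 312 to 371 CPM with vehicle and 199 to 239 CPM with DOX, and PRSS1 (trypsinogen) was the member that fell there (124 to 34.8 CPM). Calls made up 20% of the exocrine markers tested in QGP-1 and 83.3% in BON-1 cells, beside the same shares of all genes. The immune and stromal sum in BON-1 cells was 23.3 to 26.7 CPM with vehicle and 48.7 to 52.0 CPM with DOX, nearly all of it CD68 (24.5 and 49.5 CPM), a lysosomal protein, and in QGP-1 cells it was 3.7 to 5.3 and 2.9 to 3.9 CPM. The part of these shifts in the receptor values was not tested. In such bulk samples fewer cells that express a receptor and less of its RNA per cell cannot be told apart.

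The genes whose log2 CPM ran most like each receptor over the 6 libraries of a line were named by Pearson correlation. In QGP-1 cells these were SSX2IP, ZNF223 and TEX2 for SSTR2 (r = 0.999 in each), FADS1, GJB2 and FZD8 for SSTR1 (r = 0.997 in each), and NAT10, SLC22A23 and MYH10 for SSTR5 (0.992 to 0.995). In BON-1 cells they were TMEM170B, SLC30A5 and PGF for SSTR2 (0.987 to 0.994), C6ORF183, DSG2 and HSP90AA1 for SSTR1 (0.998 to 1.00), and SMS and POM121 for SSTR5 (0.996 to 1.00). These are the highest values among all genes tested in a line, and the 6 points share the division into vehicle and DOX, so they describe these libraries and carry no p. No gene was named for more than 1 receptor or line.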

How the data were processed

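RNA-seq of QGP-1 and BON-1 cells was analysed in 12 libraries. Stranded mRNA libraries were aligned by the authors, whose processing notes name STAR, DESeq2 and GRCh38 (hg38). For each line they deposited raw counts per gene and a table of deposited TPM values; the counting program and its use of the strand are not given in the sources used here. All columns matched a library by name, and 0 were left unused. Between replicates, counts varied beyond sampling noise (chi-square per gene 5.92 to 29.7). The study describes the libraries as biologic triplicates; whether they were treated on separate days is not given in the sources used here.

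Counts were filtered (filterByExpr), TMM-normalized and tested with edgeR 4.0.16 in R 4.3.3 by the quasi-likelihood test, with 3 libraries a group, over 15089 (QGP-1), 14625 (BON-1), 16598 (interaction, all libraries) and 15835 genes (lines, vehicle). Benjamini-Hochberg adjusted p below 0.05 was the threshold, with no minimum fold change. The SE is the log2 fold change divided by the square root of F. Alternatives used DESeq2 1.42.0 and other settings of edgeR, among others. The scripts were tested on simulated data. Limits given for a count of 0 cover counting error only. Genes were named by rule: the receptors, SST, CORT, SSTR5-AS1, MUC1, in each pathway list the up to 3 most changed and the most abundant genes, the genes that passed in the interaction, markers, and the 3 best correlated genes; a selection of these is given, and 1 of the correlated genes is not reported here. The pathway lists were written from general knowledge. The receptors and all lists were chosen with earlier results of these data known. RefSeq promoter windows matched all 5 receptors and SST.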

Additional observations from a re-analysis of the deposited data

Results flagged for a closer look

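Values are the log2 DOX response in BON-1 minus that in QGP-1 cells. For SSTR2 (−2.96) and SSTR5 (−1.51) every DOX library lay above every vehicle library in QGP-1 cells and below every vehicle library in BON-1 cells. Groups did not overlap, in either direction, for 46.8% of all genes tested in QGP-1 and 45.9% in BON-1 cells. The difference is given without a p because it belongs to the choice of the family.

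The remaining genes were singled out by the interaction test (edgeR, adjusted p below 0.05). Responses were lower in BON-1 cells for the ligand SST (−2.62), for the regulators RGS4 (−2.42), SHANK1 (−1.81), GRK4 (−1.55) and GRK3 (−1.01), and for the effectors PRKAR1B (−0.79), CACNA1C (−0.75), PRKACA (−0.73), PTPN11 (−0.49) and ADCY9 (−0.43). The same held for the G protein subunits GNAZ (−0.77), GNAI2 (−0.39) and GNG4 (−0.32). GALR2, a galanin receptor, had the lowest value (−6.39), from 2 counts in each QGP-1 vehicle library against 10 to 17 with DOX, and 14 to 45 against 0 to 4 counts in BON-1 cells, so its size rests on few reads. Responses were higher in BON-1 cells for CHRM4 (1.35), SHANK2 (1.14), CREM (0.94), GNG2 (0.74), RGS17 (0.62), GNG12 (0.50), GNAI1 (0.42), GNG5 (0.36) and PTPRJ (0.35). Some of these calls were lost in fits that each left out 1 library. Of 12 such fits, the call held in 2 for GRK4, 3 for GNG5, 4 for GNAI2 and 5 for ADCY9. It held in 6 for PTPRJ, 10 for CHRM4 and 11 for RGS17. GRK4 lay between −1.66 and −1.36 in the fits that lost it.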

How the results depend on the processing

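Over DESeq2, other normalizations, other filters, all libraries in 1 fit and the replicate block, no receptor difference changed direction and each stayed within the spread between replicates, and each count of pathway genes stayed within 1.5 times its value. Of 79 calls of named genes, 2 were lost with DESeq2, 2 with its size factors, 4 with library size normalization, 1 without the low-count filter and 3 with the replicate block. With at least 10 counts required in every library, 75 held, 1 was lost and the rest were not tested. With both lines in 1 fit, where interaction calls were not repeated, 51 held and 5 were lost. Among the calls lost were GNB4 in QGP-1 and ADCY3 and GRK5 in BON-1 cells, and none reversed. On log2(deposited TPM + 1) SSTR1 in QGP-1 cells turned to 0.000318, and SSTR2 and SSTR5 there were 1.01 and 0.19 and SSTR1 in BON-1 cells −0.77; without the RN7 genes, an alternative chosen after seeing the data, SSTR1 in QGP-1 cells was −0.41. The pseudocount of 1 exceeds most QGP-1 receptor values. On CPM without length the ratio of SSTR2 to SSTR1 in QGP-1 cells was 0.694 in place of 1.03, and that of SSTR1 to SSTR2 in BON-1 cells 22.8 in place of 15.2. With a minimum absolute log2 fold change of 1 the pathway counts were 2 lower and 2 higher in QGP-1, 7 and 0 in BON-1, 8 in the interaction, and 19 above and 17 below between the lines (34 and 31 without it). Leaving out each library in turn gave 8 to 14 lower genes in QGP-1 cells (8 without vehicle replicate 2) and 18 to 27 interaction genes, and receptor differences of 2.02 to 2.39 (SSTR2), −0.88 to −0.57 (SSTR1) and 0.53 to 1.01 (SSTR5) in QGP-1 cells, of −0.96 to −0.47, −0.51 to −0.38 and −0.80 to −0.58 in BON-1 cells, and of 5.80 to 5.94 for SSTR1 between the lines. Replicate numbers did not pair the libraries (correlations of same-numbered deviations −0.03 to 0.06), and with the replicate block the pathway counts were 13 lower and 12 higher in QGP-1, 25 and 8 in BON-1, and 26 in the interaction. Depth limits SSTR3 and SSTR4 in both lines and SSTR5 in QGP-1 cells.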
